A study of Homo sapiens with 9 samples.

Results

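Ribosome biogenesis factors are the proteins that transcribe, trim, modify and fold ribosomal RNA (rRNA) and assemble it with ribosomal proteins, without remaining in the finished ribosome. The 40 genes described here were chosen by name, as rows of the deposited table that carry their symbols: WDR74 and 39 others, out of 27407 features in the table. All 40 had a row, and all 40 passed the filter on low counts, as did 18767 features in all. The study knocked down SNHG1, a long noncoding RNA whose introns hold small nucleolar RNAs (snoRNAs), in Weri-RB1/CRP cells. The labels call these cells a carboplatin-resistant line of retinoblastoma, a childhood tumour of the retina. The groups were Weri-RB1/CRP cells with the SNHG1 hairpin shSNHG1#1, the same cells with a further SNHG1 hairpin, shSNHG1#2, and the same cells with the control hairpin shNC, with 3 libraries each. The labels do not say whether each line was a clone or a pool, which promoter drove the hairpins, or whether replicates were separate cultures, so the p-values measure the spread between these libraries, which may be technical. The level of SNHG1 is not analysed here, and the values below therefore give no check of how well either hairpin lowered it.

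RNA polymerase I makes a long rRNA precursor in the nucleolus, where the proteins NCL and NPM1 are abundant. Ribonucleoproteins built on box C/D snoRNAs methylate it, and those built on box H/ACA snoRNAs convert uridines to pseudouridines. The precursor is then cut and split between the small and large subunit paths, each with its own helicases, GTPases, ATPases and scaffold proteins. WDR74, a WD-repeat protein, acts on the large subunit path with the ATPase NVL. Growing tumour cells make many ribosomes, and MYC is a well known activator of these genes. MYC and its partner MAX bind the E-box, whose letters are CACGTG.

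Promoter sequences of the genes were read from RefSeq (GRCh38.p14), and those of WDR74 and of 8 genes with an E-box are printed because the later results set changes beside these letters. WDR74 lies on chromosome 11. The 250 bases before its start at chr11:62839591-62839840, minus strand, hold no E-box, and the capitals mark the letters CCGGAAGT, a motif of the kind that ETS-family factors bind.
WDR74: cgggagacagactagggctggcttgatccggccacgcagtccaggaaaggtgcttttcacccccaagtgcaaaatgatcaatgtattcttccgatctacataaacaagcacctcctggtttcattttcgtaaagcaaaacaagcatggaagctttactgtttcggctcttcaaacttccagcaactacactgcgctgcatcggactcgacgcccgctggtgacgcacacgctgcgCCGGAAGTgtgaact
In the next lines the capitals mark the E-box, with 10 bases on each side, in the direction of the gene. The first 4 genes were lower with both hairpins and the last 4 were higher with both.
FBL: cgctcttttcCACGTGcgaaagcccc
WDR43: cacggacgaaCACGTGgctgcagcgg
PES1: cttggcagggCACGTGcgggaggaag
NOP14: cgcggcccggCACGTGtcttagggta
EBNA1BP2: tattgttggcCACGTGggatcgaaga
RRP9: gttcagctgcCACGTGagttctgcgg
MYBBP1A: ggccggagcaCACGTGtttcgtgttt
PNO1: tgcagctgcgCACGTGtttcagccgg
These stretches lie at chr19:39846358-39846383 (minus) for FBL, chr2:28894660-28894685 (plus) for WDR43, chr22:30591882-30591907 (minus) for PES1 and chr4:2963376-2963401 (minus) for NOP14. Those of the genes that rose lie at chr1:43172792-43172817 (minus) for EBNA1BP2, chr3:51941894-51941919 (minus) for RRP9, chr17:4555342-4555367 (minus) for MYBBP1A and chr2:68157887-68157912 (plus) for PNO1. Genes that fell and genes that rose both hold the 6 letters of the E-box, and in FBL, WDR43, PES1, NOP14, MYBBP1A and PNO1 they lie just after the start of the gene. In RRP9 they span the start, and in EBNA1BP2 they begin 237 bases before 1 of its starts. EBNA1BP2 also holds them after its other start. The 8 genes were picked from 17 with an E-box, and all 17 are counted below.

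Each library held between 21502093 and 21606498 estimated counts. Most markers of the labelled tissue were nearly absent: of 10 cone and retinoblastoma genes, 8 were in the table and 6 of those averaged below 1 FPKM (fragments per kilobase of transcript, scaled to sequencing depth), and 5 of 6 rod genes did too. The exceptions among the cone genes were GNAT2, a transducin subunit, at 15.97 to 19.56 FPKM, and THRB, a thyroid hormone receptor, at 1.63 to 2.43 FPKM. RB1, the tumour suppressor gene that the parent line Weri-RB1 is known to lack, had 12.93 to 14.69 FPKM. RB1 and the markers near 0 go against the label, so Weri-RB1/CRP is used here as the labels' name only. All 6 epithelial markers reached 1 FPKM, with list sums of 1517.92 to 1610.39 FPKM in shSNHG1#1, 1522.99 to 1613.58 in shSNHG1#2 and 1637.23 to 1638.15 in shNC. Markers that moved with the groups were the glial list, mainly VIM, with sums of 474.36 to 498.5, 481.54 to 495.55 and 729.76 to 739.63 FPKM in the same order, and the leukocyte list, mainly CD68, with 85.09 to 96.9, 122.69 to 125.11 and 269.67 to 286.83 FPKM. The leukocyte markers PTPRC and CD3E averaged below 1 FPKM, and no marker list was at 0 as a whole. The fibroblast list, led by DCN, summed to 20.38 FPKM in shSNHG1#1 replicate 1, against at most 3.23 FPKM in any other library. The most abundant feature, which has no gene name in the table, took 12.21 to 13.54% of the counts in shSNHG1#1, 11.77 to 12.12% in shSNHG1#2 and 6.57 to 7.09% in shNC. The part of these differences in the results below was not tested beyond the values given. In bulk RNA, fewer cells of a type and less RNA per cell cannot be told apart.

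The 40 genes went both ways with each hairpin, and 1 of them, WDR74, changed far more than the rest. It fell 3.87-fold with shSNHG1#1 and 3.75-fold with shSNHG1#2, while the other 39 stayed between −0.68 and 0.69 on the log2 scale. With shSNHG1#1, 16 of the 40 (40%) were higher than in shNC, 12 (30%) were lower and 12 were not called, by edgeR's quasi-likelihood test at an adjusted p below 0.05. Of all tested features, 24.5% were higher and 23.5% were lower. With shSNHG1#2, 14 (35%) were higher, 14 (35%) were lower and 12 were not called, against 23.3% of all tested features higher and 22.8% lower. The median log2 fold change of the 40 was 0.01 with shSNHG1#1, where all tested features had 0.02, and 0.06 with shSNHG1#2, where they had 0.01. The median size of the change, without its sign, was 0.20 and 0.21 for the 40 genes and 0.29 and 0.27 for all tested features. The 40 genes had at least 198 estimated counts in every library. The set of all tested features was not matched to them by level, for these medians or for the shares called. At 1.5-fold or more, RRS1 was called higher and WDR74 lower with shSNHG1#1 (8.91% of all features higher, 7.30% lower), and FBL and WDR74 were called lower with shSNHG1#2 (6.38% lower, 7.80% higher). Both comparisons use the same shNC libraries, so their values are given side by side and their likeness is no separate result. The split depends on scaling: with library totals alone, 60.9% of all called features were higher with shSNHG1#2, against 50.6% under TMM (the trimmed mean of M-values scaling used throughout), and the 40 genes split 18 higher and 10 lower. A further alternative, chosen after seeing the data, left out the 2 most abundant features and used no TMM factors. The median of all tested features then shifted up by 0.15 with shSNHG1#1 and 0.16 with shSNHG1#2, and 23 of the 40 were higher and 7 lower with each hairpin. Of all called features, 72.1% and 73.7% were then higher. Without shSNHG1#1 replicate 1, the library with the fibroblast markers, 15 of the 40 were higher and 11 lower with shSNHG1#1.

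**Figure D1:**
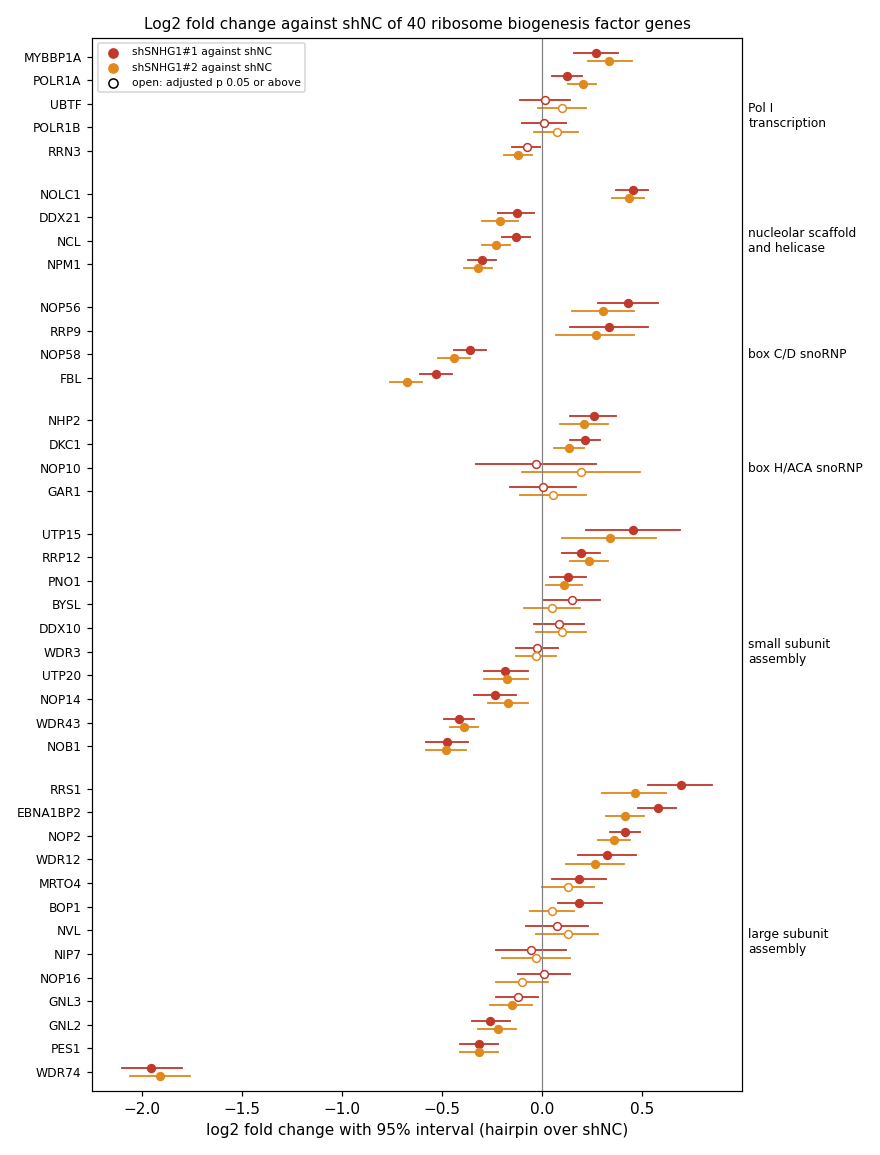
Log2 fold change over shNC (x axis) of the 40 genes (rows, grouped by role), in red for shSNHG1#1 and in orange for shSNHG1#2. Bars are 95% intervals from edgeR's fit of 9 libraries, and open circles have an adjusted p of 0.05 or above. WDR74 lies at −1.95 and −1.91, and all other genes lie between −0.68 and 0.69.

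The level of the genes ranged widely. NPM1 was highest, with a mean of 579.0 FPKM in shSNHG1#1, 578.1 in shSNHG1#2 and 690.4 in shNC, and UTP15 was lowest, with 3.10, 2.91 and 2.24 FPKM. NPM1, FBL and NCL were the 3 genes above 100 FPKM in every group. Summed over the 40 genes, the libraries held 2003.4 to 2034.7 FPKM in shSNHG1#1, 1936.2 to 2003.2 in shSNHG1#2 and 2178.7 to 2256.2 in shNC, so the hairpin libraries all lay below the shNC libraries. The median gene had 20.2, 19.4 and 18.3 FPKM, so the lower sum came with no lower median. The abundant NPM1, FBL and NCL were all among the genes called lower, although NCL with shSNHG1#1 turned to 0.02 without the 2 most abundant features. FPKM is scaled to sequencing depth, and the most abundant feature took a larger share of the counts in the hairpin libraries, as given above. The part of that share in the lower sums was not tested. Replicates were close: the largest coefficient of variation of a gene in any group had a median of 5.7% over the 40 genes and passed 10% for 4 of them, NOP10 being the widest.

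WDR74 had 14.24, 11.98 and 14.39 FPKM in the shSNHG1#1 libraries, 15.05, 14.13 and 13.40 FPKM in the shSNHG1#2 libraries and 53.00, 49.42 and 49.60 FPKM in the shNC libraries. Every hairpin library lay below every shNC library, with a wide gap. The log2 fold change was −1.95 ± 0.07 (SE; adjusted p = 3.1e-09 by edgeR's quasi-likelihood test) with shSNHG1#1 and −1.91 ± 0.07 (adjusted p = 4.6e-09) with shSNHG1#2, from 1672, 1746 and 6270 estimated counts summed over each group's libraries. The transcript length implied by its counts and FPKM was between 1895 and 1914 bases in all 9 libraries, so its fall is close to the same by counts and by FPKM. None of the 17 alternatives changed its call: the fold change stayed between −2.01 and −1.80 with shSNHG1#1 and between −1.97 and −1.75 with shSNHG1#2. In GENCODE v29 the gene overlaps AP001160.1 on the opposite strand and TEX54 on its own strand. The sources used here do not say whether counting used strand, and reads of WDR74 and AP001160.1 cannot be told apart.

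Genes near WDR74 on chromosome 11, listed here in no set order, did not all move with it. NXF1, the main export receptor of messenger RNA, fell 5.29-fold and 5.06-fold by counts. By FPKM its ratio to shNC was 0.279 and 0.272, a smaller fall, and its implied length was 30.1% and 23.9% shorter than in shNC. SLC3A2, a subunit of amino acid transporters, fell 1.34-fold and 1.37-fold. TMEM179B had log2 fold changes of −0.11 and −0.10 and TMEM223 had 0.06 and 0.06, none of which passed the test. TAF6L, a subunit of histone acetylase complexes, was called lower with shSNHG1#2 alone (−0.20 and −0.35, adjusted p = 0.182 and 0.0299). STX5, a syntaxin of the Golgi, went the other way: it had 12.13, 12.28 and 10.31 FPKM in shSNHG1#1, 13.24, 13.47 and 11.26 in shSNHG1#2 and 0.00, 0.05 and 0.00 in shNC (adjusted p = 1.0e-09 with each hairpin). Its estimated counts summed to 1367, 1483 and 1 over the same groups, so STX5 was at the floor in shNC.

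Among the 5 genes of RNA polymerase I transcription, 2 were higher with shSNHG1#1 and none lower, and with shSNHG1#2 2 were higher and 1 was lower. MYBBP1A, a nucleolar protein with a role in rRNA synthesis and processing, had the highest change of the class. It had 19.42, 18.47 and 19.02 FPKM in shSNHG1#1, 19.58, 19.73 and 20.29 FPKM in shSNHG1#2 and 13.63, 15.16 and 15.29 FPKM in shNC, with no overlap between hairpin and shNC libraries. It rose 1.21-fold and 1.26-fold (log2 fold changes 0.27 ± 0.05 and 0.34 ± 0.05, SE; adjusted p = 9.5e-04 and 2.2e-04). POLR1A, the largest subunit of the polymerase, was also called higher by counts, with log2 fold changes of 0.13 and 0.20. With shSNHG1#1 the call was lost without shSNHG1#1 replicate 3 (adjusted p = 0.0785), without shNC replicate 1 and by limma on FPKM. The FPKM of POLR1A overlapped with that hairpin, at 8.26 to 8.83 in shSNHG1#1 and 7.88 to 8.33 in shNC. Its implied length was 8.6% and 5.4% longer than in shNC, and its FPKM ratio to shNC was 1.04 and 1.14. POLR1B, the second largest subunit, and UBTF, which binds and opens rDNA, did not pass the test with either hairpin (log2 fold changes 0.01 and 0.07 for POLR1B, 0.01 and 0.10 for UBTF).

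RRN3, the factor that makes the polymerase ready to start, was lowest of that class. It had 17.85, 18.19 and 18.59 FPKM in shSNHG1#1, 17.75, 18.20 and 18.15 FPKM in shSNHG1#2 and 19.28, 18.03 and 18.36 FPKM in shNC, and the groups overlapped. Its log2 fold change was −0.08 with shSNHG1#1, which did not pass (adjusted p = 0.072), and −0.12 with shSNHG1#2, which did (adjusted p = 0.0113) but turned to 0.04 without the 2 most abundant features. The call with shSNHG1#2 was also lost with library totals alone and by limma on FPKM.

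Of the 4 nucleolar scaffolds and helicases, 1 was higher and 3 were lower with each hairpin. NOLC1, a phosphoprotein that binds snoRNA particles and the polymerase, had 65.67, 70.97 and 64.99 FPKM in shSNHG1#1, 64.48, 64.78 and 65.76 in shSNHG1#2 and 47.58, 50.91 and 49.48 in shNC. It rose 1.37-fold and 1.35-fold (adjusted p = 2.2e-06 and 3.7e-06). NPM1, a histone chaperone that gives the outer nucleolus its liquid-like state, had 570.59, 599.04 and 567.27 FPKM in shSNHG1#1, 575.11, 568.84 and 590.33 in shSNHG1#2 and 693.30, 704.50 and 673.42 in shNC. It fell 1.23-fold and 1.25-fold (log2 fold changes −0.30 ± 0.03 and −0.32 ± 0.03, SE; adjusted p = 1.7e-05 and 1.2e-05), with no overlap. NPM1 was also the most abundant of the 40 genes. GENCODE v29 names 45 pseudogenes of NPM1, the most for any of the 40, and the sources used here do not say how reads were shared with them.

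NCL, an abundant RNA-binding protein of the nucleolus, and DDX21, an RNA helicase, were called lower with both hairpins, by log2 fold changes of −0.13 and −0.23 for NCL and −0.13 and −0.21 for DDX21. With shSNHG1#1 both turned without the 2 most abundant features, to 0.02 for NCL and 0.03 for DDX21, and the call of DDX21 was lost without shSNHG1#1 replicate 3 (adjusted p = 0.0693) or replicate 1. Limma on FPKM dropped both calls with shSNHG1#1, and library totals alone dropped that of DDX21. With shSNHG1#2 both kept their sign but not their call without those features. NCL had 221.34 to 221.72 FPKM in shSNHG1#1, 201.40 to 216.11 in shSNHG1#2 and 226.24 to 244.05 in shNC.

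The 4 proteins of the box C/D snoRNP, the rRNA methylation particle, split evenly, 2 higher and 2 lower with each hairpin. FBL, its methyltransferase, had 258.52, 245.67 and 261.18 FPKM in shSNHG1#1, 244.68, 227.38 and 229.58 in shSNHG1#2 and 353.38, 361.53 and 357.68 in shNC. All hairpin libraries lay below the lowest shNC library. It fell 1.45-fold and 1.60-fold (log2 fold changes −0.53 ± 0.04 and −0.68 ± 0.04, SE; adjusted p = 6.4e-07 and 1.3e-07). NOP58, a core protein of the particle, fell too, by log2 fold changes of −0.36 and −0.44.

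NOP56, which pairs with NOP58 in the same core, was higher. Its libraries held 46.71, 44.04 and 42.78 FPKM with shSNHG1#1, 37.64, 40.21 and 45.77 with shSNHG1#2 and 36.58, 31.03 and 30.77 with shNC. The groups did not overlap, although the lowest shSNHG1#2 library and the highest shNC library were close. It rose 1.35-fold and 1.24-fold (adjusted p = 3.8e-04 and 0.00395). RRP9, which binds the U3 snoRNA, had log2 fold changes of 0.33 and 0.27, but with shSNHG1#2 its call was lost without shSNHG1#2 replicate 1 (adjusted p = 0.0969) or replicate 3, or without any one of the 3 shNC libraries. Thus FBL and NOP58 were lower, and NOP56 higher, in the same libraries.

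Of the 4 box H/ACA proteins, which pseudouridylate rRNA and also bind telomerase RNA, 2 were higher and none lower with each hairpin. NHP2 had 68.42, 60.30 and 70.01 FPKM in shSNHG1#1, 68.24, 61.08 and 62.31 in shSNHG1#2 and 52.79, 51.52 and 51.83 in shNC, with no overlap. It rose by log2 fold changes of 0.26 ± 0.05 and 0.21 ± 0.05 (SE; adjusted p = 0.00207 and 0.00735). DKC1, the pseudouridine synthase, rose by log2 fold changes of 0.21 and 0.13. GAR1, a core protein of the particle and the lowest of the class in its mean change, had 8.87, 9.04 and 8.56 FPKM in shSNHG1#1, 8.73, 9.48 and 9.24 in shSNHG1#2 and 8.72, 7.80 and 8.66 in shNC. Its fold changes did not pass the test, with 95% intervals of −0.16 to 0.17 and −0.11 to 0.22. NOP10 did not pass either, and its intervals were the widest of the 40 genes, −0.33 to 0.27 and −0.10 to 0.49, with shNC libraries at 73.86, 79.60 and 53.27 FPKM.

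**Figure D2:**
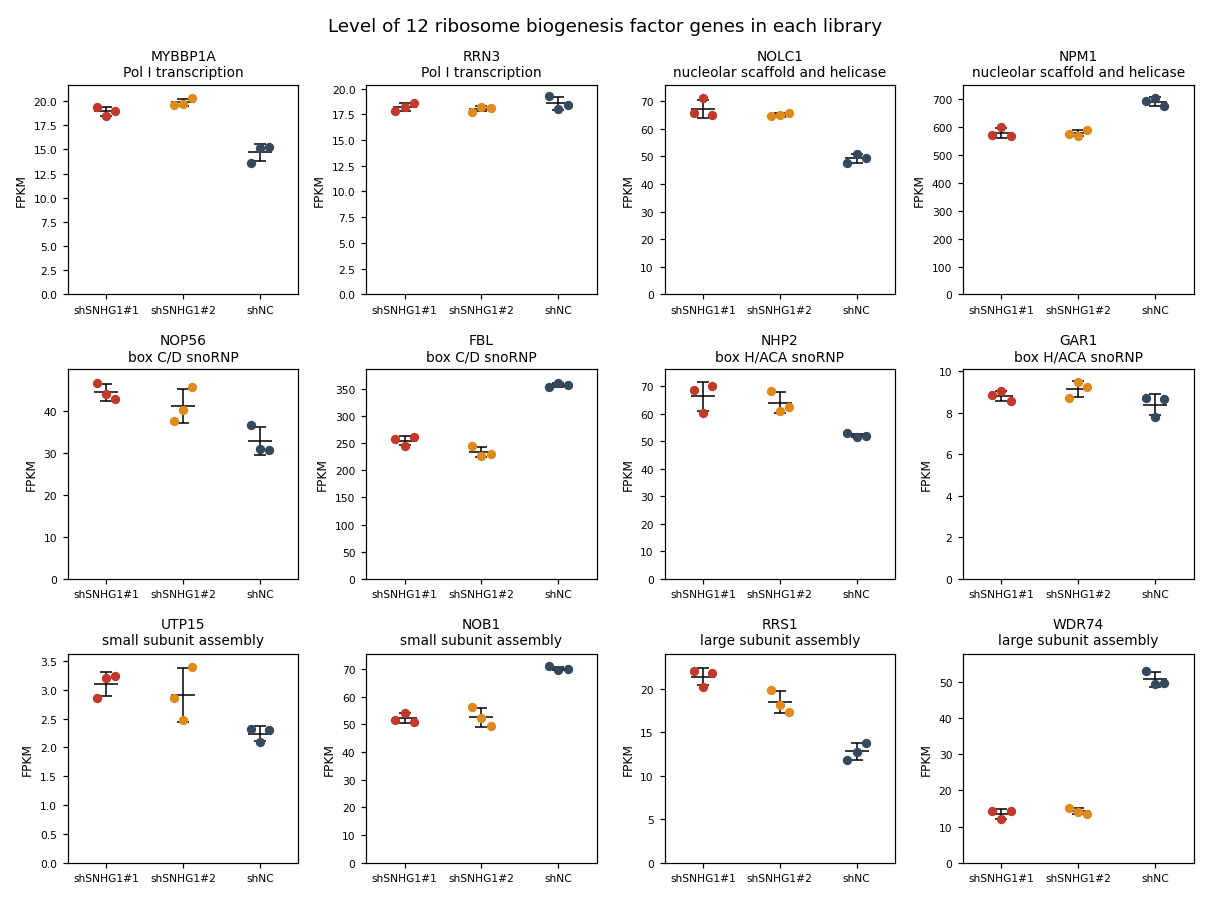
FPKM (y axes, from 0) of 12 genes in each of the 9 libraries, in the groups shSNHG1#1, shSNHG1#2 and shNC. Points are libraries and bars are the mean ± SD of 3 libraries. WDR74 had 11.98 to 15.05 FPKM in the hairpin libraries and 49.42 to 53.00 in shNC, while RRN3 overlapped between all groups.

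Among the 10 factors of the small subunit, 3 were higher, 4 lower and 3 not called with each hairpin. UTP15, part of the early complex that binds the rRNA precursor, had 2.86, 3.21 and 3.24 FPKM in shSNHG1#1, 2.86, 2.47 and 3.39 in shSNHG1#2 and 2.32, 2.09 and 2.30 in shNC. It rose 1.37-fold and 1.26-fold (adjusted p = 0.00465 and 0.0247). With shSNHG1#2 its call was lost without shSNHG1#2 replicate 3 (adjusted p = 0.106) or replicate 1, and without shNC replicate 2 or 3. RRP12, an export and assembly factor, rose by 0.19 and 0.23 on the log2 scale. PNO1, the partner of the nuclease NOB1, was called higher at 0.13 and 0.11, the smallest of these changes. Its calls were lost without most single libraries, with adjusted p up to 0.137 for shSNHG1#1 (without its replicate 3) and up to 0.197 for shSNHG1#2 (without shNC replicate 3).

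NOB1, the nuclease that makes the last cut of small subunit rRNA, moved the other way. It had 51.71, 54.13 and 50.79 FPKM in shSNHG1#1, 56.10, 52.13 and 49.24 in shSNHG1#2 and 70.90, 69.72 and 69.86 in shNC, and fell by log2 fold changes of −0.47 ± 0.05 and −0.48 ± 0.05 (SE; adjusted p = 8.0e-06 and 8.2e-06). WDR43, of the same early complex as UTP15, fell by log2 fold changes of −0.42 and −0.39, with 32.88 to 36.95 FPKM in shSNHG1#1, 34.36 to 36.34 in shSNHG1#2 and 44.01 to 46.54 in shNC. NOP14 (−0.24 and −0.17) and UTP20 (−0.18 and −0.18), both parts of small subunit precursors, were also called lower, and neither kept a call without the 2 most abundant features. UTP20 with shSNHG1#2 no longer passed when shSNHG1#2 replicate 1 was left out (adjusted p = 0.059). With library totals alone, NOP14 and UTP20 lost their calls with shSNHG1#2, and limma on FPKM dropped UTP20 with both hairpins. BYSL, an assembly factor, and the helicase DDX10 and WDR3 were not called, with log2 fold changes of 0.15 and 0.05 for BYSL, 0.08 and 0.10 for DDX10 and −0.03 and −0.03 for WDR3. By FPKM, DDX10 had 24.30 to 25.82, 24.01 to 27.15 and 20.20 to 22.82 in shSNHG1#1, shSNHG1#2 and shNC. BYSL had 8.25 to 8.86, 8.04 to 8.51 and 6.98 to 7.86, so neither gene overlapped shNC. Limma on FPKM called DDX10 higher with both hairpins and BYSL with shSNHG1#1. WDR3 turned to 0.13 with each hairpin without the 2 most abundant features.

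The 13 factors of the large subunit gave 6 higher, 3 lower and 4 not called with shSNHG1#1, and 4 higher, 4 lower and 5 not called with shSNHG1#2. RRS1, which helps bring the 5S particle into the large subunit, was highest of the 40 genes in its change. It had 22.13, 20.28 and 21.84 FPKM in shSNHG1#1, 19.87, 18.21 and 17.36 in shSNHG1#2 and 11.87, 12.78 and 13.83 in shNC, with no overlap. It rose 1.62-fold and 1.38-fold (log2 fold changes 0.69 ± 0.07 and 0.46 ± 0.07, SE; adjusted p = 1.5e-05 and 3.7e-04). EBNA1BP2, a further early assembly factor, rose 1.49-fold and 1.33-fold, with 44.35 to 48.22 FPKM in shSNHG1#1, 40.40 to 43.37 in shSNHG1#2 and 30.19 to 30.31 in shNC. NOP2, an rRNA methyltransferase, rose by 0.41 and 0.36 on the log2 scale. RPF2, the partner of RRS1, is not among the 40 genes and was picked with its values already known. It was lower, by −0.33 and −0.32 (adjusted p = 0.00238 and 0.00279).

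PES1, BOP1 and WDR12 form 1 complex of the large subunit path, and the 3 genes did not move together. PES1 fell 1.24-fold and 1.25-fold, with 27.84 to 30.12 FPKM in shSNHG1#1, 28.66 to 29.74 in shSNHG1#2 and 33.53 to 34.71 in shNC. WDR12 rose by 0.33 and 0.27 on the log2 scale, with 11.30 to 12.48, 10.51 to 12.35 and 9.19 to 9.30 FPKM in the same groups. BOP1 was called higher with shSNHG1#1 (log2 fold change 0.19, adjusted p = 0.00989, or 0.0574 without shNC replicate 2, and lost too without shSNHG1#1 replicate 1) and not with shSNHG1#2 (0.05, 95% interval −0.06 to 0.16). By limma on FPKM it was called higher with shSNHG1#2 too, at 19.49 to 21.42 FPKM against 17.43 to 18.73 in shNC.

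MRTO4, related to the ribosomal stalk protein whose place it holds during assembly, was likewise called higher with shSNHG1#1 alone (0.19 and 0.13, adjusted p = 0.0243 and 0.0989). That call was lost without shNC replicate 3 (adjusted p = 0.106) or 2, or without shSNHG1#1 replicate 2 or 3. The GTPase GNL2 fell by −0.26 and −0.22, and neither call held without the 2 most abundant features. Limma on FPKM also dropped the call of GNL2 with shSNHG1#2. GNL3, or nucleostemin, was called lower with shSNHG1#2 alone (−0.12 and −0.15, adjusted p = 0.056 and 0.0227), but its FPKM overlapped fully, at 42.06 to 46.07, 42.40 to 45.61 and 41.85 to 45.65. Its implied length was 5.3% and 6.3% shorter than in shNC, and by limma on FPKM its difference with shSNHG1#2 was 0.01. The call was lost without shSNHG1#2 replicate 2 (adjusted p = 0.0894) or replicate 1, without shNC replicate 2, and with library totals alone. For BOP1, MRTO4, GNL3 and RRN3, called with 1 hairpin only, the difference between the hairpins did not pass the test. Some of the 17 alternatives called them with the other hairpin too, in the same direction: 2 for BOP1, 3 for MRTO4, 7 for GNL3 and 3 for RRN3.

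NVL, the ATPase that works with WDR74, was not called: it had 6.38 to 7.44 FPKM in shSNHG1#1, 7.12 to 7.91 in shSNHG1#2 and 6.43 to 7.25 in shNC, and its log2 fold changes were 0.07 (95% interval −0.08 to 0.23) and 0.13 (−0.03 to 0.28). MTREX, a nuclear helicase that WDR74 binds, is not among the 40 and was chosen for that role. It was not called either (−0.05 and 0.09). By FPKM, MTREX had 12.30 to 13.41 in shSNHG1#1, 14.48 to 15.29 in shSNHG1#2 and 12.42 to 13.07 in shNC, so shSNHG1#2 did not overlap shNC. NIP7 and NOP16, both of the large subunit path, were the last genes without a call, at −0.06 and −0.03 for NIP7 and 0.01 and −0.10 for NOP16. Implied length lay within 5% of shNC in both hairpin groups for 33 of the 40 genes. The other 7 were POLR1A, POLR1B, NOLC1, NOP58, DDX10, NVL and GNL3, with changes of at most 8.6% in size. For these the fold change differs between counts and FPKM. The ratio of NOP58 to shNC was 0.778 and 0.738 by counts and 0.862 and 0.833 by FPKM. By limma on FPKM, POLR1A with shSNHG1#1 and GNL3 with shSNHG1#2 lost their calls, and DDX10 was called higher with both hairpins. Genes within 5% lost calls by limma too: NCL, DDX21 and UTP20 with shSNHG1#1, and RRN3, UTP20 and GNL2 with shSNHG1#2.

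Between the hairpins, shSNHG1#2 against shSNHG1#1, none of the 40 genes passed edgeR's quasi-likelihood test, where 2.00% of all tested features were higher and 1.12% were lower. At an unadjusted p below 0.05, 7 of the 40 passed, but the share of all features at that cutoff is not given here. DESeq2 called 4 (NCL, FBL, RRS1 and EBNA1BP2, all lower) and limma on FPKM called 0. Over all features, DESeq2 called 618 higher and 356 lower, and limma on FPKM called 324 and 95. The log2 fold changes ran between −0.23, for RRS1, and 0.22, for NOP10. The smallest adjusted p was 0.0715, for EBNA1BP2 (−0.16, 95% interval −0.26 to −0.07), followed by FBL (−0.14, −0.23 to −0.06, adjusted p = 0.0718). Without shSNHG1#2 replicate 1, FBL passed (−0.18, adjusted p = 0.0144) and was the 1 gene of the 40 called. WDR74 differed by 0.05 (−0.12 to 0.21). These intervals do not show that the hairpins acted alike.

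**Figure D3:**
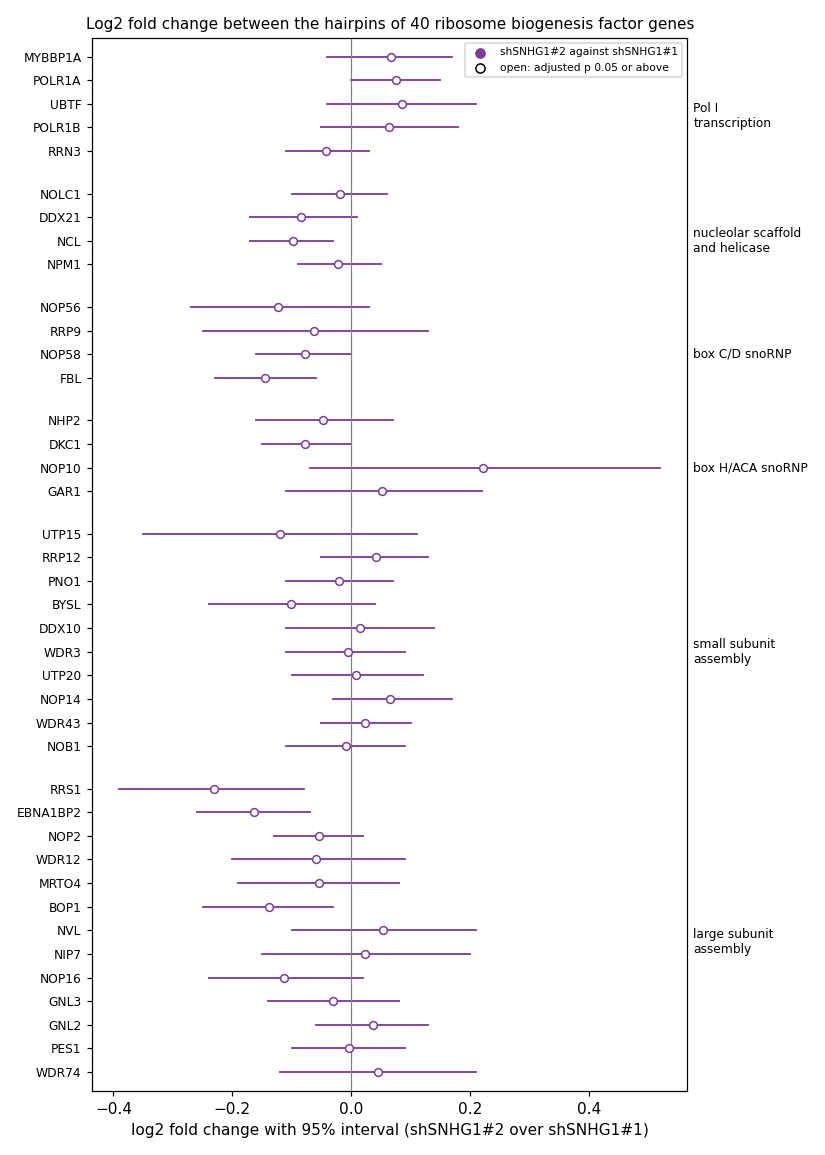
Log2 fold change of shSNHG1#2 over shSNHG1#1 (x axis) of the 40 genes (rows, grouped by role), with 95% intervals from edgeR's fit. All circles are open, for an adjusted p of 0.05 or above, and the values run between −0.23 and 0.22.

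MYC had 21.87, 20.43 and 20.40 FPKM in shSNHG1#1, 24.41, 23.51 and 23.32 in shSNHG1#2 and 57.01, 58.84 and 58.20 in shNC. It fell by log2 fold changes of −1.52 and −1.35 (adjusted p = 2.2e-10 and 6.0e-10 by edgeR's quasi-likelihood test). MAX was called lower by counts, at −0.25 and −0.19. By FPKM, MAX had means of 27.49 in shSNHG1#1, 29.89 in shSNHG1#2 and 29.98 in shNC. The shSNHG1#2 and shNC libraries overlapped, at 28.79 to 31.51 and 29.55 to 30.47. The letters CACGTG, which read the same on both strands, were found in the promoter window (250 bases before to 50 after the start) of 17 of the 35 genes that had a window, or 48.6%. This compares with 26.2% of 103 other ribosome biogenesis factors, 11.8% of tested features with a window and 8.77% of all 27305 genes with one. In 12 of the 17 the letters lie only after the start. RRS1, NOLC1, RRP12, NOP58 and BOP1 had no window.

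The genes with the E-box letters moved both ways. Of the 17, 6 were higher, 7 lower and 4 not called with shSNHG1#1, and 5, 8 and 4 with shSNHG1#2. Of the 18 without them, 6 were higher, 4 lower and 8 not called with shSNHG1#1, and 6, 5 and 7 with shSNHG1#2. The median log2 fold change was −0.03 and 0.05 with the letters and 0.02 and 0.08 without. The part of MYC in any of these changes was not tested. The ETS-type letters CCGGAAGT, searched on both strands, do not contain the E-box, nor does it contain them. They were in 7 of the 35 windows (20.0%), against 30.1% of the other factors, 8.46% of tested features and 4.95% of all genes. WDR74 was 1 of the 7. Both motifs were chosen after the promoter sequences had been seen, and a match is a description, not a site of binding.

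**Figure D4:**
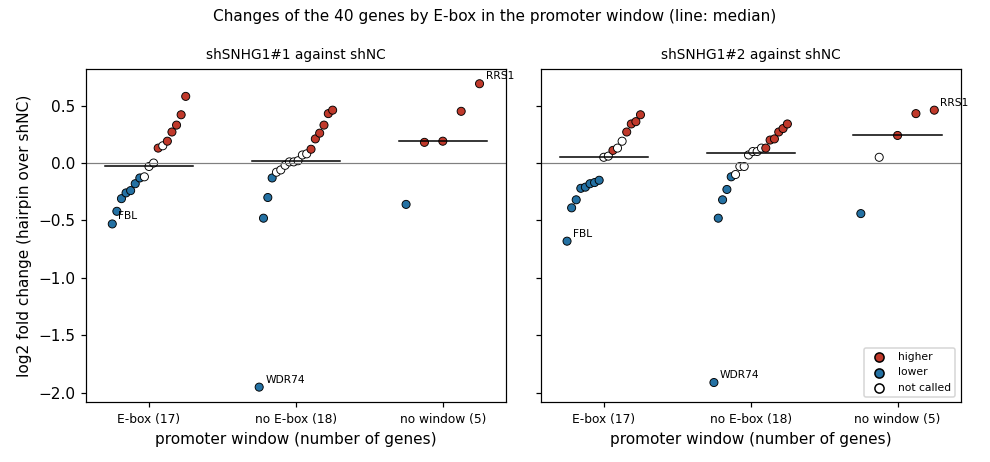
Log2 fold change over shNC (y axes) of the 40 genes, split on the x axis by whether the promoter window holds CACGTG, for shSNHG1#1 (left) and shSNHG1#2 (right). Red points were called higher, blue points lower and open points not called, and lines are medians. Genes with the letters lie on both sides of 0, and WDR74, at −1.95 and −1.91, is among those without.

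Some of these factors are themselves hosts of snoRNAs, which are cut from their introns. In GENCODE v29, 6 of the 40 genes hold 23 snoRNA genes: NCL, NOP56, NOP58, DKC1, WDR43 and GNL3. NOP56 and DKC1 were higher and NCL, NOP58 and WDR43 lower with both hairpins, and GNL3 was called lower with shSNHG1#2. The snoRNAs themselves were not analysed here.

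Beyond the 40 genes, a list of 118 other ribosome biogenesis factors in the table had 117 that were tested, and these too went both ways. With shSNHG1#1, 30 were higher, 37 lower and 50 not called, with a median log2 fold change of −0.02. With shSNHG1#2, 24 were higher, 36 lower and 57 not called, with a median of −0.02. The background shares of all tested features are those given above, and no difference between the lists was tested. NOL6, an early small subunit factor, rose 1.60-fold and 1.63-fold, with means of 13.46 ± 0.748, 13.99 ± 0.783 and 8.27 ± 0.380 FPKM (SD, n = 3) in shSNHG1#1, shSNHG1#2 and shNC. SPATA5, an ATPase related to NVL, rose by 0.60 and 0.60 on the log2 scale, NOC2L by 0.59 and 0.47, and WDR46 by 0.58 and 0.44. Lowest was EXOSC6, a subunit of the RNA exosome, at −0.68 and −0.68. NOP53, which docks the exosome on the precursor, fell by −0.57 and −0.61, with 89.4 ± 5.39, 87.9 ± 8.03 and 125.3 ± 1.87 FPKM in the same order. KRR1 (−0.50 and −0.51) and the kinase RIOK1 (−0.44 and −0.55), both of the small subunit path, fell as well. None of the 117 passed the test between the hairpins, where DESeq2 called 3, against 974 of all features. An unadjusted p below 0.05 was reached by 18 of the 117, and the share of all features at that cutoff is not given here. None of these 8 named factors moved as far as WDR74.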

How the data were processed

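Total RNA of 9 samples, 3 with each of the hairpins shSNHG1#1, shSNHG1#2 and shNC, was sequenced by a BGI500 protocol per the labels. The authors deposited 1 table with an estimated count and a normalised expression value per feature and library. The deposited table does not name the second unit, which was taken as FPKM from its values. The submitters' processing notes name Bowtie2 (2.2.5), HISAT2 (2.0.4), DESeq2 (1.4.5) and RSEM (1.2.12), without saying what each was used for. The sources used here give no genome build, annotation or strand setting.

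Counts were rounded and tested in R 4.3.3 with edgeR 4.0.16 (quasi-likelihood F test, TMM scaling, filterByExpr, all 9 libraries in 1 fit of group), with Benjamini-Hochberg adjustment over 18767 features and a threshold of 0.05. The code was checked on simulated data. Levels are FPKM, as mean ± SD of 3 libraries, and intervals are at 95%. Replicates of a group differed beyond sampling noise (chi-square per degree of freedom 3.13 to 6.29), so none was counted as a duplicate. Alternatives were library totals, median-ratio factors, no filter, DESeq2 1.42.0, limma 3.58.1 on log2(FPKM + 1) for features averaging 0.1 FPKM or more, the replicate block, the 2 compared groups alone, and leaving out each library. Library totals without the 2 most abundant features, with no TMM factors, were added after seeing the data. Values in every library are given for WDR74 and the highest and lowest gene of each role. Of the other factors, the 4 highest and 4 lowest called with both hairpins are named. The members and all lists were chosen with earlier results of these data known. Promoter windows come from RefSeq (GRCh38.p14), and gene overlaps, snoRNAs and pseudogenes from GENCODE v29, matched by symbol.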

Additional observations from a re-analysis of the deposited data

How the results depend on the processing

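Of the 28 genes of the 40 called with each hairpin, 19 with shSNHG1#1 and 18 with shSNHG1#2 kept their call and direction under all 17 alternatives, and 23 and 23 did when each library was left out in turn. Leaving out 1 library gave 13 to 16 genes higher and 11 to 14 lower with shSNHG1#1, and 11 to 13 and 13 to 14 with shSNHG1#2. It gave 8051 to 8939 called features of all with shSNHG1#1, 7674 to 8752 with shSNHG1#2 and 297 to 534 between the hairpins, where 586 were called with all libraries. That count moved by over 1.5 times without shSNHG1#1 replicate 3 (351), shSNHG1#2 replicate 2 (297) or shSNHG1#2 replicate 3 (349). Over all libraries left out in turn, 0 to 1 of the 40 genes were lower between the hairpins, the 1 being FBL without shSNHG1#2 replicate 1. Between the hairpins, a fit of the 2 compared groups alone called 386 features and DESeq2 called 974, with 4 of the 40 lower. For the other factors, leaving out 1 library gave 22 to 28 higher and 33 to 38 lower with shSNHG1#1, and 17 to 23 and 31 to 40 with shSNHG1#2.

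Without the 2 most abundant features, chosen after seeing the data, 7 of the 40 were lower with shSNHG1#1, and 23 were higher and 7 lower with shSNHG1#2. Of the other factors, 50 were higher and 20 lower with shSNHG1#1, and 52 and 19 with shSNHG1#2. The signs of NCL (0.022) and DDX21 (0.027) with shSNHG1#1, RRN3 (0.037) and GNL3 (0.003) with shSNHG1#2, and WDR3 (0.128 and 0.125) turned with it, as did that of GNL3 with shSNHG1#2 by limma on FPKM (0.007). By construction this setting raises the values of the remaining features in the hairpin libraries, where the 2 features took more of the counts. It also used no TMM factors. Library totals alone shifted the median of all tested features by 0.046 with shSNHG1#1 and 0.065 with shSNHG1#2, against 0.153 and 0.155 in this setting.

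Replicate numbers did not pair the samples: deviations of samples with the same number correlated at −0.036 to 0.032, and those with other numbers at −0.052 to 0.047. With the replicate block, 8752, 8421 and 433 features were called in the 3 comparisons, and 16 of the 40 genes were higher and 12 lower with shSNHG1#1, 13 and 14 with shSNHG1#2 and none between the hairpins.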
